A study of Mus musculus with 4 samples.

Results

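The FGF-ERK target and feedback genes are 10 genes whose transcription is known to follow signalling from fibroblast growth factors (FGFs) through the kinase ERK: the Sprouty genes Spry1, Spry2 and Spry4, the Sprouty-related genes Spred1 and Spred2, the ETS transcription factor genes Etv1, Etv4 and Etv5, the phosphatase gene Dusp6 and the membrane antagonist gene Il17rd. They were found by symbol in the count table of the series, which matched 10 of 10 among 24982 genes. An FGF ligand binds a receptor tyrosine kinase, which activates Ras and then the kinases Raf, MEK and ERK; active ERK switches on ETS factors, and it also induces inhibitors that act back on the cascade. In the early forebrain FGFs come mainly from the anterior neural ridge and the commissural plate at the rostral midline, and transcripts of these genes are widely used as a readout of where that signal is received.

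RNA was measured by sequencing of polyA libraries from micro-dissected mouse forebrain at E10.5, a stage when the first neurons form. The conditional knockout (cKO) libraries, 2 in number, came from embryos with the genotype Sox1 cre+/-; Chd7 f/f, in which a Cre recombinase under the name of the neural gene Sox1 acts on floxed alleles of the chromatin remodeller gene Chd7. The 2 control libraries had the genotype Chd7 +/f, so that a floxed allele was present in every embryo while Cre was named for the cKO alone, and an effect of the Cre allele cannot be told apart from the loss of Chd7. Sox1 itself was lower, at 139 and 147 CPM (read counts scaled to a common library total) in cKO libraries, against 177 and 173 CPM in control libraries (log2 fold change −0.29, SE 0.05, adjusted p = 0.031 in edgeR); its part in the results was not tested. The title of the series names the control of neurogenic genes by CHD7 as its subject. Nothing says whether a library held 1 embryo or several, or whether libraries of a group came from separate litters, so the p-values reflect the scatter among these 4 libraries and no more.

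Totals of 16581252 to 17096522 counts per library lay behind the values. Chd7 itself, the targeted gene, stood at 136 and 132 CPM in cKO libraries, against 339 and 345 CPM in control libraries. The forebrain factor genes Lhx2 and Pax6 and the progenitor gene Sox2 were expressed in all libraries, as the label forebrain calls for, and of the 8 tested forebrain markers 3 were lower in cKO and 0 higher. A gene was called where its adjusted p was under 0.05 (edgeR quasi-likelihood test, Benjamini-Hochberg over 14235 genes tested), which marked 1.57% of all genes as higher and 2.13% as lower. Since the samples are bulk tissue, more cells of a type that express a gene and more RNA per cell cannot be told apart in any value below.

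Of the 10 genes, 7 were called higher in the cKO forebrain and 0 lower: Spry1, Spry2, Spry4, Etv4, Etv5, Dusp6 and Il17rd. All 10 passed the count filter. Their log2 fold changes ran from 0.25 (Spred2) to 1.22 (Etv5), with a median of 0.86 against a median of 0.00 over all tested genes. Each of the 10 had both cKO libraries above both control libraries, as did 24.3% of all tested genes. In the authors' deposited table, 7 of the 10 were also higher at an adjusted p under 0.05, against 1.99% of the genes with an adjusted p there. The 3 genes that were not called were Spred1, Spred2 and Etv1. Other genes of these families were counted in separate lists. Spry3, at 36 to 52 counts per library, had 3.13 and 2.48 CPM in cKO libraries, against 2.28 and 2.12 CPM in control libraries. It was not called (log2 fold change 0.35, SE 0.31, adjusted p = 0.63 in edgeR). Its 95% interval, 0.77-fold to 2.11-fold, took in both no change and a doubling. Spred3 was called higher.

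**Figure D1:**
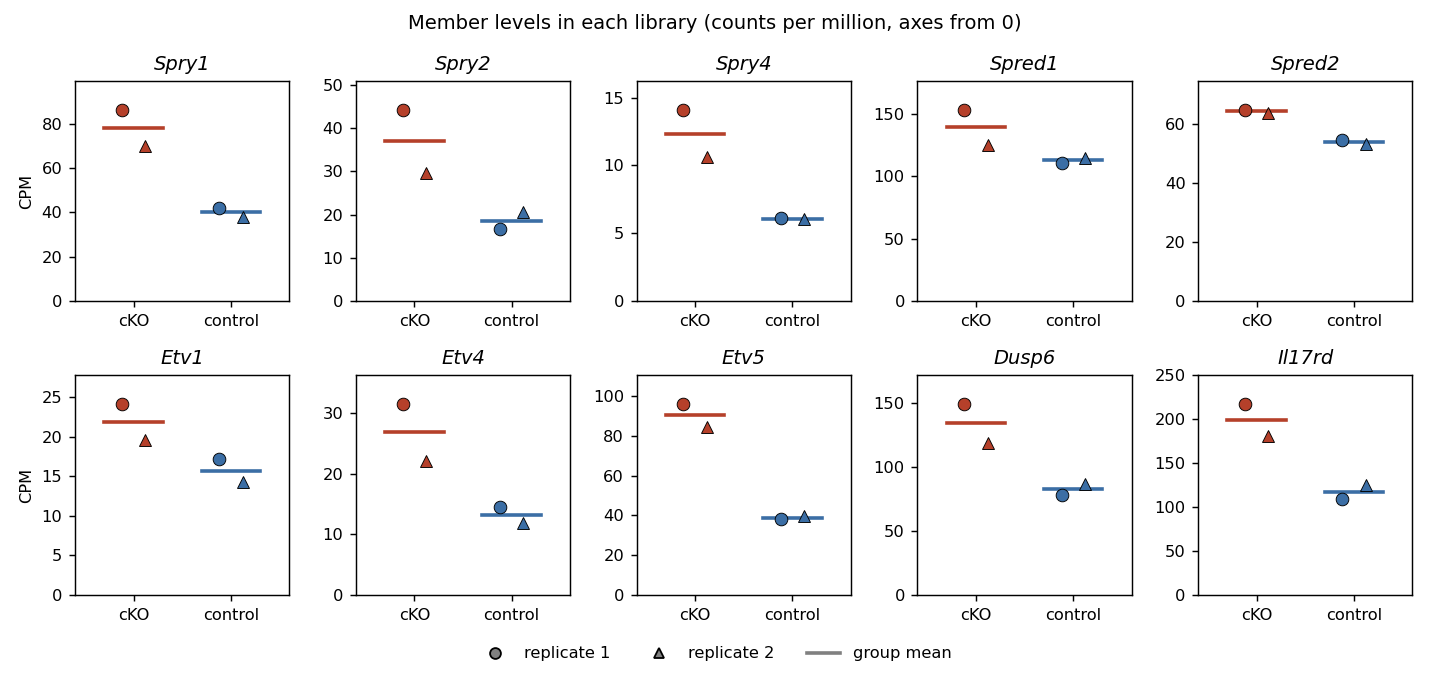
Level of each of the 10 genes in each library, in CPM on axes that start at 0. Red marks cKO and blue control, circles replicate 1 and triangles replicate 2, and horizontal lines the group means (n = 2 each); in all 10 panels both cKO points lie above both control points, and cKO replicate 1 lies above cKO replicate 2.

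The Sprouty genes encode membrane-associated inhibitors of receptor tyrosine kinase signalling to ERK, induced by the signal that they restrain. Spry1 (GRCm38 chromosome 3, 37639947 to 37644599) was at 86.2 and 69.9 CPM in cKO libraries and at 41.9 and 38.0 CPM in control libraries. The groups lay far apart: the lower cKO library was 1.67-fold above the higher control library. Spry1 averaged 78.0 ± 11.5 CPM in cKO and 40.0 ± 2.8 CPM in control forebrain (SD, n = 2 each). Its log2 fold change was 0.96 (SE 0.11, adjusted p = 0.0059 in edgeR). In the GENCODE annotation 710 exon bases of Spry1 overlap the opposite-strand gene Gm42922, and without a strand option in the counting, reads there could come from either gene. Spry4 (chromosome 18, 38586247 to 38601347), the lowest of the family per exon length, had 14.1 and 10.6 CPM in cKO libraries, against 6.12 and 6.06 CPM in control libraries. Its log2 fold change was 1.02 (SE 0.19, adjusted p = 0.037 in edgeR).

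Spry2 (chromosome 14, 105891947 to 105896819) had 44.2 and 29.6 CPM in cKO libraries, against 16.7 and 20.5 CPM in control libraries. The spread within the cKO group was the widest of the 10 genes, with replicate 1 at 1.49-fold of replicate 2. The log2 fold change of 0.99 (SE 0.20) had an edgeR adjusted p of 0.042. The calls of Spry2 and Spry4 depended on the libraries used. Without cKO replicate 1 the adjusted p was 0.095 for Spry2 and 0.139 for Spry4, and without control replicate 1 it was 0.127 and 0.101 in the same order. Spry4 also lost its call without control replicate 2 (edgeR adjusted p = 0.055). Both calls ended in limma-voom, with adjusted p of 0.062 for Spry2 and 0.0501 for Spry4; limma-voom called 5 of the 10 genes, against 1.48% of all genes higher.

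The promoter of Spry2 is shown because it holds a letter match to the octamer bound by Capicua (CIC), a repressor that ERK inactivates and whose best-known targets are Etv1, Etv4 and Etv5. The sequence is the 250 bases before the RefSeq start, at chr14:105896820-105897069 on the minus strand (GRCm38.p6), with the octamer in capitals.
Spry2: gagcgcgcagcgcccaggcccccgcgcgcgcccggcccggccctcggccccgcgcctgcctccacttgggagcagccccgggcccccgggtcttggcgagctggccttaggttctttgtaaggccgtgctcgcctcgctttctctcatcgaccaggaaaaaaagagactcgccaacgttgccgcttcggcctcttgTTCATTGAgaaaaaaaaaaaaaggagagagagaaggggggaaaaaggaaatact
The octamers searched for were TGAATGAA, TGAATGGA, TCAATGAA and TCAATGGA on both strands. The match in Spry2 reads TTCATTGA, the reverse complement of TCAATGAA, and starts 54 bases before the transcript start. Among 32851 RefSeq promoter windows of the same length, 3.19% held at least 1 of these octamers. RefSeq promoters were at hand for 8 of the 10 genes, in 10 windows, and 2 of the windows held a match, those of Spry2 and Dusp6. None of the 10 windows held the ETS motif CCGGAAG, found in 6.91% of all windows, or the AP-1 motif TGANTCA, found in 6.75%. These are matches of letters and say nothing of binding.

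The Spred genes encode Sprouty-related proteins that recruit the Ras inhibitor neurofibromin to the membrane. Spred1 (chromosome 2, 117121071 to 117182279) had 153 and 125 CPM in cKO libraries, against 111 and 115 CPM in control libraries. Its cKO replicate 2 was close to the controls, 1.09-fold above the higher of them. The log2 fold change was 0.30 (SE 0.09, edgeR adjusted p = 0.14). Without cKO replicate 2 it was 0.44 (adjusted p = 0.033 in edgeR) and without cKO replicate 1 it was 0.15 (adjusted p = 0.44). Spred2 (chromosome 11, 19924442 to 20024026) had 64.7 and 63.6 CPM in cKO libraries, against 54.6 and 53.2 CPM in control libraries. The libraries of each group nearly coincided, and the groups did not overlap. Its log2 fold change was 0.25 (SE 0.06, edgeR adjusted p = 0.082), the smallest of the 10. The 95% intervals of these ratios of cKO to control ran from 1.06 to 1.43 for Spred1 and from 1.07 to 1.32 for Spred2, so that a doubling lay outside both. The third gene of the family, Spred3, was taken from a separate list and was called higher; its values are given with the other pathway genes.

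Dusp6 encodes a cytoplasmic phosphatase that removes the activating phosphates from ERK, and is among the most direct transcriptional readouts of ERK activity in the embryo. Dusp6 (chromosome 10, 99263231 to 99267489) was at 149.6 and 119 CPM in cKO libraries and at 78.5 and 87.1 CPM in control libraries. Its level averaged 134 ± 22 CPM in cKO and 82.8 ± 6.1 CPM in control forebrain (SD, n = 2 each). The log2 fold change of 0.70 (SE 0.11, adjusted p = 0.018 in edgeR) was called in each of the 4 fits that left out a library, with adjusted p from 0.0067 to 0.046. Its promoter is the other window with a Capicua octamer, here TCCATTGA, the reverse complement of TCAATGGA, which starts 24 bases before the transcript start. The window lies at chr10:99262981-99263230 on the plus strand.
Dusp6: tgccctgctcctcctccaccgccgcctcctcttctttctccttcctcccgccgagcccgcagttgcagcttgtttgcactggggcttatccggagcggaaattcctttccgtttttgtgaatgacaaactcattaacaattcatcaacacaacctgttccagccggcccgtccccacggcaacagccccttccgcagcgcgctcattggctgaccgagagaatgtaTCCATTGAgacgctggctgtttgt

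Il17rd, also called Sef, encodes a transmembrane protein that restrains FGF receptor and ERK signalling. Il17rd (chromosome 14, 27038964 to 27107286) had 218 and 181 CPM in cKO libraries, against 109 and 125 CPM in control libraries. The groups did not overlap, with 1.44-fold between the lower cKO library and the higher control library. This change, a log2 value of 0.76 (SE 0.10, adjusted p = 0.0092 in edgeR), was called in all 4 fits with a library left out (adjusted p 0.0016 to 0.018).

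Etv1, Etv4 and Etv5 form the PEA3 group of ETS transcription factors, which are induced by FGF signals and carry them to further genes. Etv5 (chromosome 16, 22381313 to 22439570) had 96.2 and 84.3 CPM in cKO libraries, against 38.1 and 39.6 CPM in control libraries. Its lower cKO library stood 2.13-fold above its higher control library, the widest gap of the 10. The log2 fold change was 1.22 (SE 0.08, edgeR adjusted p = 0.00086), with a 95% interval of 2.03-fold to 2.65-fold. The size of this change placed Etv5 at rank 124 from the top among all tested genes, and its p-value at rank 14.

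Etv4 (chromosome 11, 101769747 to 101785310) had 31.6 and 22.1 CPM in cKO libraries, against 14.5 and 11.9 CPM in control libraries. The log2 fold change was 1.03 (SE 0.19, edgeR adjusted p = 0.035). The call ended without cKO replicate 1 (adjusted p = 0.089) and without control replicate 2 (0.0504). Etv1 (chromosome 12, 38780082 to 38870483) had 24.2 and 19.6 CPM in cKO libraries, against 17.2 and 14.2 CPM in control libraries. These groups were the closest of the ETS genes, with 1.14-fold between the lower cKO library and the higher control library. The change of Etv1, 0.48 on the log2 scale (SE 0.15, adjusted p = 0.17 in edgeR), was not called, and its 95% interval ran from 1.08-fold to 1.79-fold. This interval lay below that of Etv5 without overlap and shared values with that of Etv4, which ran from 1.49-fold to 2.78-fold. The differences between genes were not tested.

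Etv5 has RefSeq promoter windows at 2 starts, and both are shown because the gene had the largest change. Neither held one of the 4 octamers above. After the letters of the inner window had been seen, the search was extended to the forms that end in G (TGAATGAG, TGAATGGG, TCAATGAG and TCAATGGG), which are in capitals here. The outer window is at chr16:22439571-22439820 and the inner one at chr16:22438369-22438618, both on the minus strand.
Etv5 outer start: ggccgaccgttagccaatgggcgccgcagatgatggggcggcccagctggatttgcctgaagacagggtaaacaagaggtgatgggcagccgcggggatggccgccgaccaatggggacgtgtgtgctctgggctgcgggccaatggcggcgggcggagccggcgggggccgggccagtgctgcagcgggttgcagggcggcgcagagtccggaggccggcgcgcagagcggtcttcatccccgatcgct
Etv5 inner start: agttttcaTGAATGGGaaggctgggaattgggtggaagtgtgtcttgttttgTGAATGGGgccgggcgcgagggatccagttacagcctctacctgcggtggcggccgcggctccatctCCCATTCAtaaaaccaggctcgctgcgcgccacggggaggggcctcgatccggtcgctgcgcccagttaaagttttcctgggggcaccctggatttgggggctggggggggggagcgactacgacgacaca
The inner window held 3 matches, starting 242, 198 and 131 bases before that start, of which the last is on the other strand and reads CCCATTCA. At least 1 such octamer was present in 2.86% of the 32851 windows, and this was the 1 window with 3 or more. Because the extension was chosen from this very sequence, the count is a description. The gene counts do not separate transcripts from either start.

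**Figure D2:**
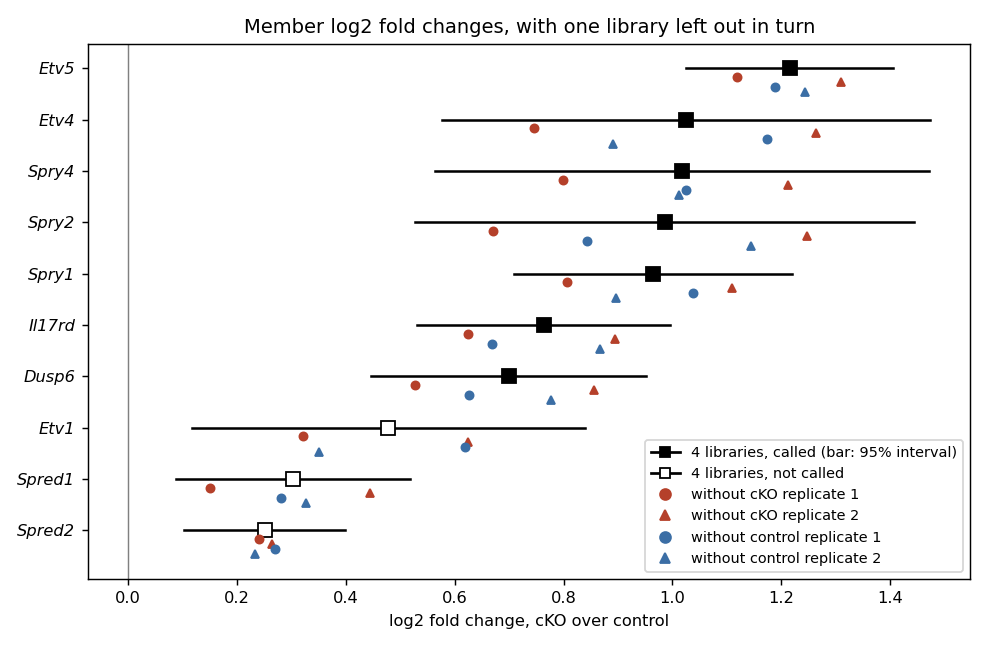
Log2 fold change of each of the 10 genes, cKO over control. Squares are the fit with 4 libraries, filled where called, bars their 95% intervals, and the small symbols are the fits without the named library; all lie above 0, from 0.15 to 1.31, and the fit without cKO replicate 1 is lower than the square for all 10 genes.

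The cKO libraries did not carry equal amounts of these transcripts. Replicate 1 was above replicate 2 for 10 of the 10 genes, by 1.02-fold (Spred2) to 1.49-fold (Spry2), whereas 49.5% of all tested genes were higher in replicate 1. Among the control libraries, replicate 2 was the higher for 5 of the 10. Without cKO replicate 1, the median log2 fold change of the 10 genes was 0.65 and 4 were called higher (Spry1, Etv5, Dusp6 and Il17rd), against 0.976% of all genes in that fit. Without cKO replicate 2 the median was 1.00 and 8 were called, against 0.546% of all genes. Leaving out control replicate 1 gave 5 calls, against 0.827%, and leaving out control replicate 2 gave 5, against 2.4%. Spry1, Etv5, Dusp6 and Il17rd were the 4 genes called under every alternative tried.

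Per length of exon, Dusp6 was the most abundant of the 10 in both groups, at 42.9 ± 6.9 CPM per kb in cKO and 26.4 ± 1.9 CPM per kb in control libraries (SD, n = 2 each). In cKO libraries Spry1 followed at 26.8 CPM per kb, then Etv5 at 22.0, Spred1 at 20.5, Il17rd at 18.1, Spry2 at 17.7, Spred2 at 13.9, Etv4 at 8.64, Spry4 at 2.60 and Etv1 at 1.65 CPM per kb, as group means. The libraries of neighbouring genes in this order overlapped from Etv5 through Spry2. Within each cKO library, Etv5 was above Spred1 and Spred1 above Il17rd, while Il17rd and Spry2 changed places between the libraries. In control libraries the order of mean levels was Dusp6, Spred1 at 16.6, Spry1 at 13.8, Spred2 at 11.7, Il17rd at 10.7, Etv5 at 9.47, Spry2 at 8.92, Etv4 at 4.24, Spry4 at 1.28 and Etv1 at 1.18 CPM per kb. There the neighbours that overlapped were Etv5 with Spry2, and Spry4 with Etv1, and both pairs changed places between the libraries. The low place of Etv1 depends on its length of 13296 merged GENCODE exon bases, against 3104 for Etv4, while reads were counted over RefSeq exons. In CPM, Etv1 averaged 21.9 in cKO and 15.7 in control libraries, near Etv4 at 26.8 and 13.2.

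The make-up of the families was read as each gene's share of the summed level, with no test of the shares. The size of each share depends on the same exon lengths. Spry1 made up 55.1% and 59.4% of the summed Sprouty level per kb in cKO libraries, against 60.9% and 54.1% in control libraries. Spry4 made up 5.51% in each cKO library, against 5.43% and 5.27% in control libraries. Of the summed level per kb of Etv1, Etv4 and Etv5, Etv1 held 5.13% and 5.06% in cKO libraries, against 8.47% and 7.36% in control libraries. The share of Etv5 was 66.2% and 70.5% in cKO libraries, against 61.0% and 66.3% in control libraries. The shares of Etv1 and, by a narrow margin, of Spry4 did not overlap between the groups. Those of Spry1, Spry2, Spred1, Spred2, Etv4 and Etv5 overlapped. No background was computed for such shares. For the levels of single genes, both cKO libraries lay above both controls in 24.3% of all tested genes, and below both in 3419 of 14235. The lack of overlap is therefore only a description of these libraries.

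**Figure D3:**
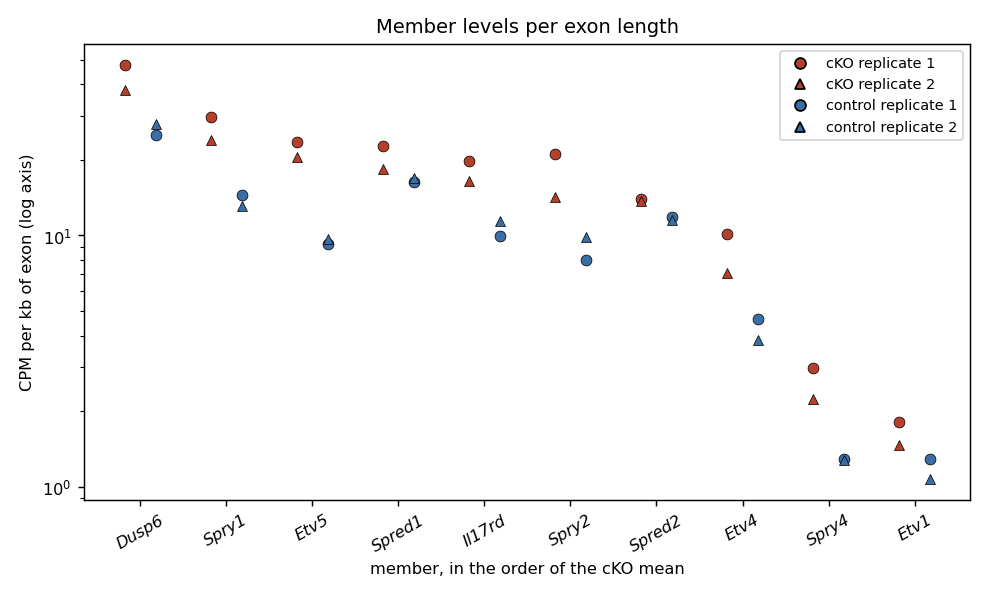
Level of each gene per kb of exon in each library, on a log axis, ordered by the cKO mean. Red points are cKO libraries and blue points control libraries; Dusp6 is highest in both groups, and Spry4 and Etv1 lie at 1.07 to 2.97 CPM per kb.

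The rest of the pathway was read from 5 lists of 93 genes in all, of which 74 were tested. Among these, 8 were higher and 1 lower, against 1.57% and 2.13% of all tested genes. Of the 9 tested genes with an Fgf symbol, 3 were higher, against 1.57% of all tested genes. Fgf3 had the largest change of these 9 but was not called (log2 fold change 2.22, SE 0.55, adjusted p = 0.080 in edgeR). Its counts were low, at 19 and 19 in cKO libraries and 3 and 5 in control libraries. The list median log2 fold change was 0.17, the value of Fgf15. That gene had 65.5 and 76.5 CPM in cKO libraries, against 57.7 and 68.3 CPM in control libraries, and was not called. Fgf11, Fgf12, Fgf13 and Fgf14 were counted by symbol, whether or not they act as receptor ligands. Their log2 fold changes were −0.09, 0.13, −0.11 and 0.14, without a call. Fgf8, the main signal of the anterior neural ridge, had 24.2 and 19.6 CPM in cKO libraries, against 5.16 and 10.6 CPM in control libraries (log2 fold change 1.47, SE 0.29, edgeR adjusted p = 0.042). Fgf17, of the same subfamily, had 51.1 and 37.4 CPM in cKO libraries, against 18.5 and 24.4 CPM in control libraries (1.05, SE 0.18, edgeR adjusted p = 0.025). Fgf18, the third gene of that subfamily, rose by 1.02 (SE 0.21, edgeR adjusted p = 0.045). The call of Fgf8 ended without cKO replicate 1 (adjusted p = 0.114) or cKO replicate 2 (0.082), and that of Fgf17 without cKO replicate 1 (0.065) or control replicate 1 (0.061). The call of Fgf18 ended in each of the 4 fits that left out a library (edgeR adjusted p 0.059 to 0.178) and was not made by DESeq2 (adjusted p = 0.079). In CPM, Fgf3 (at equal counts), Fgf8, Fgf12, Fgf17 and Fgf18 were higher in cKO replicate 1 than in cKO replicate 2, like the 10 genes. Fgf11, Fgf13, Fgf14 and Fgf15 were higher in cKO replicate 2. Of all tested genes, 49.5% were higher in cKO replicate 1.

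The receptors and the cascade between ligand and target showed no call in the fit with 4 libraries. Of 4 tested FGF receptor genes 0 were called, with a list median of −0.15; Fgfr1 had 199 and 198 CPM in cKO libraries, against 189 and 191 CPM in control libraries. The smallest p-values were those of Fgfrl1, a receptor without a kinase domain (log2 fold change −0.48, edgeR adjusted p = 0.051), and Fgfr3 (−0.36, adjusted p = 0.18). Of 26 genes of the ERK cascade, from adaptors to kinases, 0 were called and the median was −0.01. Map2k1, which encodes MEK1, had a log2 fold change of 0.29 (edgeR adjusted p = 0.079). At an unadjusted p under 0.05 in edgeR there were 2 of 4 receptor and 3 of 26 cascade genes. Between 2240 and 2640 of all 14235 tested genes were under that threshold as well. DESeq2 called 0 receptor genes and 0 cascade genes. Alternatives called 2 receptor genes once each: Fgfrl1 lower among genes at 5 CPM or more on average (adjusted p = 0.049 in edgeR), and Fgfr2 higher without cKO replicate 1 (log2 fold change 0.54, adjusted p = 0.013 in edgeR). Of 15 further ETS factors and Cic, 0 were called, with a median of −0.15; Erf, an ETS repressor exported from the nucleus by ERK, had a log2 fold change of 0.26 (edgeR adjusted p = 0.068) and Cic one of −0.20 (adjusted p = 0.069). In that list 4 of 15 genes had an unadjusted p under 0.05 in edgeR, to be set beside the same 2240 to 2640 of 14235. DESeq2 called 0 of them. Erf was called higher without control replicate 2 (adjusted p = 0.033 in edgeR).

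Of 20 other tested ERK response and feedback genes, 5 were higher and 1 lower, against 1.57% and 2.13% of all tested genes. The list median was 0.20. Flrt1, which encodes a membrane protein that binds FGF receptors, had the largest change, at 25.1 and 27.6 CPM in cKO libraries and 11.8 and 8.95 CPM in control libraries (log2 fold change 1.35, SE 0.16, edgeR adjusted p = 0.0064). Dusp5, an ERK phosphatase of the nucleus, rose by 1.12 (SE 0.19), Myc by 0.91 (SE 0.18), Spred3 by 0.56 (SE 0.09) and the cyclin gene Ccnd1 by 0.22 (SE 0.04), with edgeR adjusted p of 0.024 to 0.044. Flrt3, a relative of Flrt1, fell by 0.38 (SE 0.07, edgeR adjusted p = 0.034). Apart from Flrt1, each of these calls ended in at least 3 of the 4 fits that left out a library: those without cKO replicate 1, cKO replicate 2 or control replicate 1, with adjusted p of 0.0657 to 0.176, and for Ccnd1 also that without control replicate 2 (0.101). The 14 genes of this list that were not called ran from −0.80 (Egr1) to 1.07 (Ier3) on the log2 scale. Among immediate early genes Myc was called, as given above. Egr1, Fos, Junb and Dusp1 had log2 fold changes of −0.80, −0.57, −0.17 and −0.02, and Ier2 and Ier3 had 0.29 and 1.07, with edgeR adjusted p of 0.15 (Ier3) to 0.96 (Dusp1) over these 6.

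**Figure D4:**
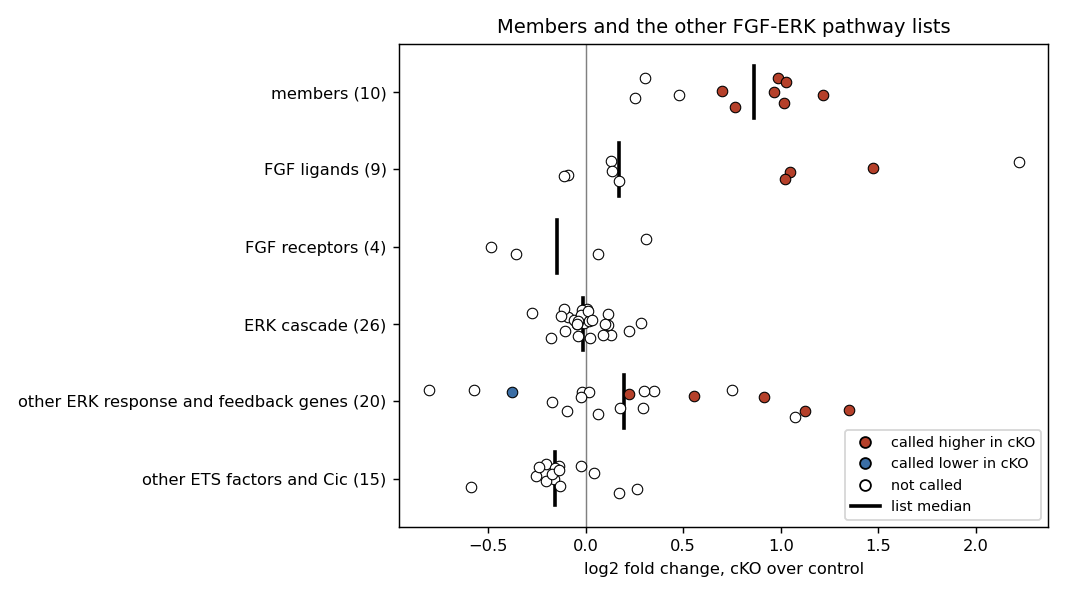
Log2 fold change, cKO over control, of the 10 genes and of the tested genes of 5 other pathway lists (numbers tested in parentheses). Red marks genes called higher in cKO, blue the gene called lower, and the black bars the list medians. These are 0.86 for the 10 genes, 0.17 for the list labelled FGF ligands, which takes in all Fgf symbols tested, and −0.01 for the ERK cascade.

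Summed levels of marker genes for neighbouring tissue and for other cell types were set beside these results. Midbrain and hindbrain markers summed to 20.6 and 31.6 CPM in cKO libraries, against 7.50 and 14.4 CPM in control libraries. The list median log2 fold change was 1.78, above that of the 10 genes. Of the 6 tested, 5 had both cKO libraries above both control libraries, as did 24.3% of all tested genes. Cnpy1, whose zebrafish counterpart acts in FGF signalling at the midbrain-hindbrain boundary, was the 1 gene called, at 6.57 and 5.15 CPM in cKO libraries, against 1.56 and 1.35 CPM in control libraries. Pax8, Pax2, Wnt1 and Gbx2 had log2 fold changes of 2.63, 1.78, 1.77 and 0.99 without a call (edgeR adjusted p 0.085 to 0.17). Pax5 went the other way, at 1.99 and 3.25 CPM in cKO libraries, against 1.32 and 5.89 CPM in control libraries (log2 fold change −0.46, adjusted p = 0.77 in edgeR). En1, with 0 and 2 counts in cKO against 0 and 7 in control libraries, and En2, with 4 and 10 against 1 and 1, were not tested. Counts in this list were low, such as 11 and 31 for Pax2 in control libraries. The hindbrain genes Hoxa2 and Hoxb1 had 0 counts in all libraries. Surface ectoderm markers summed to 63.5 and 49.5 CPM in cKO libraries, against 14.5 and 52.6 CPM in control libraries, with a median of 0.81, 0 of 6 called and none of its markers at 0 in all libraries. Head mesenchyme markers summed to 1037 and 661 CPM in cKO libraries, against 963 and 1111 CPM in control libraries, with a median of −0.27 and 0 of 11 called. Erythroid markers were lower, at 1895 and 1808 CPM in cKO libraries, against 2852 and 3071 CPM in control libraries. Their median was −0.68, and 6 of 9 tested were called lower, against 2.13% of all tested genes. In this list 4 adult globin genes had 0 counts in all libraries, and whether their reads were lost in mapping or counting was not tested. Endothelial markers summed to 267 and 269 CPM in cKO libraries, against 318 and 312 CPM in control libraries (median −0.31, 0 of 10 called), and macrophage markers to 22.1 and 17.3 CPM in cKO libraries, against 24.9 and 23.5 CPM in control libraries (median −0.34, 0 of 6 called). Both cKO libraries lay below both control libraries for 9 of 10 endothelial, 9 of 9 tested erythroid and 2 of 6 macrophage markers. The same held for 3419 of all 14235 tested genes. Ventral midline and hypothalamic markers differed within groups, at 29.8 and 73.1 CPM in cKO libraries, against 26.0 and 84.5 CPM in control libraries (median 0.53, 0 of 7 called). Between the cKO libraries, the surface ectoderm, head mesenchyme, erythroid and macrophage sums and the level of Cnpy1 were higher in replicate 1, as were the 10 genes, and the midbrain and hindbrain, endothelial and ventral sums were higher in replicate 2. With the erythroid markers removed, the same 7 of the 10 genes were called higher, against 1.55% of all genes; the part of the other markers in the result was not tested.

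The genes whose pattern over the 4 libraries was most like the mean of the 10 were Nr3c1, Maf, Hspb8, Kirrel3 and Map3k5, chosen among 10673 genes at 5 CPM or more on average by the root mean square difference of centred log2 CPM. That difference was 0.04 for Nr3c1, the glucocorticoid receptor gene, 0.05 for the transcription factor gene Maf, 0.06 for the small heat shock protein gene Hspb8, and 0.07 for Kirrel3, an adhesion molecule gene, and for the kinase gene Map3k5. Among the 10 themselves it ran from 0.06 (Dusp6) to 0.28 (Spred2). Nr3c1 had 19.5 and 15.9 CPM in cKO libraries, against 10.9 and 11.1 CPM in control libraries, and so showed the same order of libraries. With 4 libraries such a likeness is a description of these samples.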

How the data were processed

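RNA was sequenced from 4 forebrain libraries, 2 cKO and 2 control, grouped by the genotype in the labels. The authors deposited raw read counts per gene, made with featureCounts 2.0.1 on paired-end reads over RefSeq exons of mm10 (GRCm38) with no strand option, per the file headers. The submitters' processing notes also name HISAT2 and DESeq2, without versions. The authors' deposited comparison table holds p-values, adjusted p-values, log2 fold changes and their standard errors, a Wald score and normalized counts, a signal that equals the counts divided by 1 factor per library; its score and signal were not used.

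Genes were kept by filterByExpr (minimum count 10), library sizes were scaled by TMM, and cKO was compared with control in edgeR 4.0.16 (R 4.3.3) with no covariate, over 14235 genes; the step was also tested on simulated data. SEs are the log2 fold change over the root of F. The common biological coefficient of variation was 0.0785. It summarises all genes, while precision differed by gene, with SEs from 0.06 (Spred2) to 0.20 (Spry2) among the 10. Replicate libraries differed beyond sampling noise (chi-square over degrees of freedom 4.52 for cKO, 5.37 for control). Exon lengths are merged GENCODE M21 exons, coordinates and promoters RefSeq GRCm38.p6. Alternatives used limma 3.58.1 and DESeq2 1.42.0, and plots matplotlib 3.10.9.

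The 10 genes and all lists were chosen with earlier results of these data known. Named in the text are the 10 genes, Chd7, up to 6 called genes per pathway list or the 2 with the smallest p, the 5 genes of most similar pattern, and a few further list genes named after their values were seen (Fgf3, Fgf11, Fgf12, Fgf13, Fgf14, Fgf15, Fgfr1, Fgfr2, Spry3, Sox1, Egr1, Fos, Junb, Dusp1, Ier2, Ier3 and the marker genes). A gene that the rule names in the ERK cascade list is not reported here.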

Additional observations from a re-analysis of the deposited data

How the results depend on the processing

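Over 12 alternatives for each of the 10 genes, 108 of 120 results kept their direction and their side of the threshold, 11 lost the call, 1 gained it (Spred1 without cKO replicate 2) and 0 reversed. Upper-quartile factors, DESeq2 size factors, the DESeq2 Wald test, a minimum of 5 CPM on average, the lack of any count filter and removal of erythroid markers each left the same 7 calls, and limma-voom made 5. No scaling moved the median of all genes by more than 0.014 on the log2 scale. Leaving out a library gave 4 to 8 of the 10 called higher, and 80 to 351 higher and 131 to 418 lower over all genes. In the other pathway lists it gave 2 to 8 higher and 0 to 1 lower. The fit at 5 CPM called 2 of these lower, one of them the receptor gene Fgfrl1; the receptor gene Fgfr2 was called higher without cKO replicate 1. A fit without a library assumes that the lone library varies like those of the other group.

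The replicate numbers are not stated to pair libraries, and the deviations of same-numbered libraries had a correlation of −0.01 over 11103 genes. With the replicate number as a block, 137 genes were called higher and 211 lower in all. Among the calls were 5 of the 10 genes, all higher (without Spry2 and Spry4), and 2 higher and 0 lower of the other pathway genes. The cause of these differences was not tested. Spry4 had the fewest counts of the 10, 102 to 234 per library; its SE of 0.19 was close to those of Spry2 and Etv4, which had more.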
